A study of Mus musculus with 24 samples.

Results

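Col1a1, Col1a2, Col3a1, Col5a1, Col5a2, Col11a1 and Col2a1 encode chains of the fibrillar collagens, and Col6a1, Col6a2 and Col6a3 encode the main chains of type VI collagen. These 10 genes, 7 fibrillar and 3 of type VI, were chosen by name as a family, and all 10 were listed and tested in each of 3 comparisons of mutant with control cells. The tables held 20523 genes for endothelial cells at E13.5, 23792 genes for pericytes at E13.5 and 21860 genes for pericytes at E11.5.

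Messenger RNA was sequenced from cells sorted by flow cytometry out of mouse embryonic brains, in 24 libraries. Mutants were Pdgfrb-Cre, Alk5(flox/flox), Zs/+ embryos, labelled with GMH-IVH as their disease state, and controls were Pdgfrb-Cre, Alk5(flox/+), Zs/+ embryos, labelled normal. At E13.5, endothelial cells came from 3 mutant and 5 control samples and pericytes from 4 mutant and 4 control samples, and at E11.5 pericytes came from 4 mutant and 4 control samples. Every group, controls included, carried the Cre, the ZsGreen reporter and at least one floxed copy of Alk5, the older name of Tgfbr1, whose product is the type I TGF-beta receptor, so mutants were set against heterozygous and not wild-type cells. Pdgfrb drives the Cre in pericytes and in other mural and mesenchymal cells, and the labels give the sorted pericytes the cell type of mesenchymal cells. The labels do not tie samples to separate embryos or litters, so each p-value reflects the spread among the given samples only, which may be technical. The study set out to learn which genes of pericytes depend on ALK5 while brain vessels form.

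A fibrillar collagen is secreted as a triple helix whose ends are trimmed outside the cell, after which the helices pack into cross-linked fibrils. Type I collagen is built from the chains of Col1a1 and Col1a2 and type III from that of Col3a1, while type V, from Col5a1 and Col5a2, starts fibrils and limits their width, and types II and XI, from Col2a1 and Col11a1, form the fibrils of cartilage. Type VI collagen forms beaded filaments next to basement membranes. In the brain these genes are known from fibroblasts of the meninges and of the spaces around larger vessels, and TGF-beta is a classic inducer of type I collagen in fibroblasts.

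The values are the authors' group means of normalized read counts, 1 mean per group, with the authors' ratio, p and step-up FDR, which is printed as the adjusted p, with a gene said to rise or fall where it is under 0.05. Values per library were not analysed here, so no spread within a group and no overlap between samples can be shown, and depth is unknown. A standard error (SE) is the one that a ratio and its p imply together, and all log2 ratios are of mutant over control. The tables were normalized separately, which bears on every level set side by side across them. In the authors' deposited tables Tgfbr1 averaged 2849 in mutant and 3066 in control endothelial cells (adjusted p 0.859), 5823 in mutant and 5700 in control E13.5 pericytes (adjusted p 1.00), and 6196 in mutant and 4609 in control E11.5 pericytes (adjusted p 0.399). These are values of the whole gene, with none per exon, and so do not check the deletion.

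The sorted fractions were checked against markers in the authors' deposited tables. In E11.5 pericytes 11 of 12 pericyte markers were listed, with a summed mean of 11169 in mutants and 13829 in controls, beside 30270 in mutants and 36035 in controls for 13 listed fibroblast and meninges markers and 16497 in mutants and 18873 in controls for 9 listed cartilage and bone markers. Of the 12 cartilage and bone markers Matn1, Cnmd and Ibsp were the ones not listed. In E13.5 endothelial cells the 12 endothelial markers summed to 130564 in mutants and 150932 in controls, and 9 listed pericyte markers to 1180 in mutants and 1808 in controls. In E13.5 pericytes 11 listed pericyte markers summed to 24297 in mutants and 24002 in controls. There 13 listed fibroblast and meninges markers summed to 78169 in mutants and 77770 in controls. The 11 listed cartilage and bone markers summed to 43426 in mutants and 50459 in controls. The summed mean of the fibroblast and meninges markers thus exceeded that of the pericyte markers in the cells sorted as pericytes at both stages. These sums are over different genes with no correction for length. At E11.5 Lum alone gave 11231 in mutants and 13049 in controls, and Sox9 gave 12176 and 14116 of the cartilage and bone sum. The median percentile among all genes in E11.5 controls was 88.7 for fibroblast and meninges markers and 72.8 for pericyte markers. The word pericytes is used here as the label of the sorted fraction.

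Stretches before the transcription start are shown for Col6a2 and Col1a2, the pair that fell in mutant pericytes at E11.5, and for Col3a1, whose ratio there was nearest to zero. The sequences are RefSeq's on GRCm38.p6, the assembly of mm10, and run 5′ to 3′ on the strand of the gene, with matches to the motifs named below in capitals. Col6a2 is shown for chr10:76623631-76623880 on the minus strand, Col1a2 for chr6:4505368-4505492 on the plus strand and Col3a1 for chr1:45311288-45311537 on the plus strand, each ending at the base before the start of the gene's principal transcript in GENCODE M21.
Col6a2: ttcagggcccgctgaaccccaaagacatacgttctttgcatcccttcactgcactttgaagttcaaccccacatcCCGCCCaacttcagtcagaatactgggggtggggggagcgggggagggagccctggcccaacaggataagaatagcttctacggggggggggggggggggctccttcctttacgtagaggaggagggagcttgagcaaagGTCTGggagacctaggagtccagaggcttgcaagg
Col1a2: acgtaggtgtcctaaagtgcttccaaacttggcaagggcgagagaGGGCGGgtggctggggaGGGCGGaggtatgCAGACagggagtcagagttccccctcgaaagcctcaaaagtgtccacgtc
Col3a1: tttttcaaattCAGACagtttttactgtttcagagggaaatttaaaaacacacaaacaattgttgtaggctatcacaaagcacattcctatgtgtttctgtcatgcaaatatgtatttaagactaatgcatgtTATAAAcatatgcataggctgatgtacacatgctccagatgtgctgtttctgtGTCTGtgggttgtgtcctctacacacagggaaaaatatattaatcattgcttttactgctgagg
The letters searched, on both strands, were TATAAA (the TATA box), then the CCAAT box, then GGGCGG (the GC box, bound by Sp1), a SMAD motif of CAGAC, and finally TGANTCA (the AP-1 motif). In that order they occurred in 12.4%, 33.8%, 32.7%, 42.2% and 6.75% of 32851 RefSeq windows of 250 bases. The Col6a2 window shown holds 1 GC box and 1 SMAD motif, both read on the opposite strand. The stretch of Col1a2 shown holds 2 GC boxes and 1 SMAD motif, and Col3a1 holds 1 TATA box and 2 SMAD motifs, with no GC box. In all, 7 of the 10 genes matched the RefSeq table, with 8 windows since Col6a2 has 2 starts. The other window of Col6a2, not shown, holds 3 GC boxes and no SMAD motif. The full 250-base window of Col1a2 holds 1 CCAAT box as well, outside the stretch shown. A match describes letters and does not show that a factor binds there.

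In pericytes at E11.5 the collagens were lower in mutants than in controls in all 10 cases, and Col6a2 and Col1a2 fell past the threshold. That is 2 of 10, where 2.7% of the 19301 genes tested fell. The median log2 ratio of the 10 genes was -0.61, against -0.0044 over all genes, and 50.4% of all genes had a negative log2 ratio. With no adjustment, 7 of the 10 had a p under 0.05, as did 17.7% of all genes. Together the 10 genes took 0.457% of all normalized counts in mutants and 0.661% in controls, by the authors' deposited table. In bulk samples fewer cells of a type and less RNA per cell cannot be told apart.

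Of the chains of type I collagen, Col1a2 (chr6:4504814-4541544, plus strand, mm10) had a mean of 10586 in mutants and 17120 in controls by the authors' deposited table. It fell 1.62-fold (log2 ratio -0.69, SE 0.20, adjusted p 0.0255). Its partner Col1a1 (chr11:94936224-94953042, plus strand) had a mean of 15585 in mutants and 28766 in controls, by the authors' deposited table. The log2 ratio of Col1a1, -0.88, was the larger of the pair, but so was its SE of 0.32, and its adjusted p of 0.102 missed the threshold. Col3a1 (chr1:45311538-45349706, plus strand), the type III chain that often shares fibrils with type I, averaged 28719 in mutants and 30521 in controls by the authors' deposited table. Its log2 ratio was -0.09 with a 95% interval of -0.38 to 0.20, the smallest of the family in size.

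The type V and cartilage chains lay between these. In the authors' deposited table Col5a1 averaged 1714 in mutants and 2466 in controls (log2 ratio -0.52, adjusted p 0.129), and Col5a2 had 3232 in mutants and 4204 in controls (log2 ratio -0.38, adjusted p 0.299). Both make up type V collagen, and neither passed the threshold. Col11a1 averaged 1930 in mutants and 2799 in controls (log2 ratio -0.54, adjusted p 0.140) in the authors' deposited table. Col2a1 averaged 6880 in mutants and 9175 in controls there (log2 ratio -0.42, adjusted p 0.295).

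All 3 chains of type VI collagen were lower in mutant pericytes at E11.5, with log2 ratios between -0.92 and -0.68. Col6a2 (chr10:76595762-76623630, minus strand) had a mean of 1405 in mutants and 2492 in controls by the authors' deposited table, and fell 1.77-fold (log2 ratio -0.83, SE 0.19, adjusted p 0.00187). This was the lowest adjusted p of the 10 collagens. Col6a1 (chr10:76708792-76726168, minus strand), beside Col6a2 on the same chromosome, averaged 1425 in mutants and 2282 in controls by the authors' deposited table (log2 ratio -0.68, SE 0.24, adjusted p 0.0823). Col6a3 (chr1:90765923-90843971, minus strand), the longest chain, averaged 639 in mutants and 1210 in controls there (log2 ratio -0.92, SE 0.31, adjusted p 0.0737). At an adjusted p under 0.1, 4 of the 10 collagens were lower, Col1a2 and the 3 type VI chains, where 4.49% of all genes were.

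**Figure D1:**
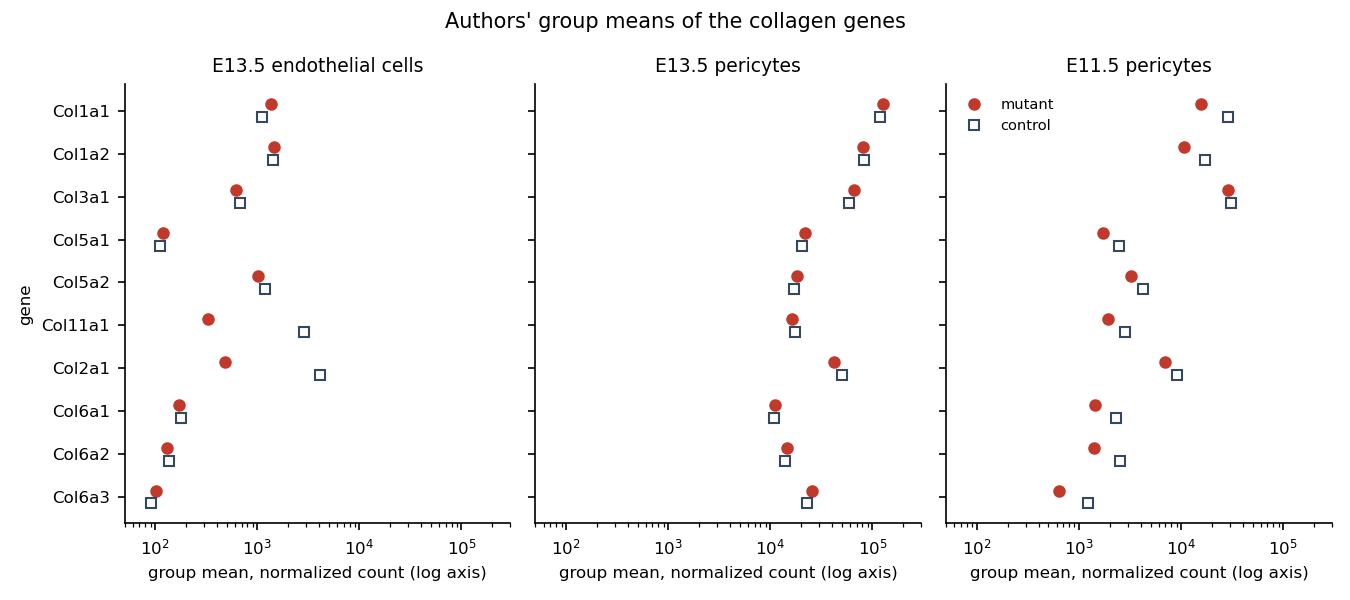
Authors' group means of normalized counts (horizontal log axis) for the 10 collagen genes in E13.5 endothelial cells, E13.5 pericytes and E11.5 pericytes, with filled circles for mutants above open squares for controls. In E11.5 pericytes every mutant mean lies left of its control mean, and in endothelial cells the gap is widest for Col11a1 (325 in mutants and 2849 in controls) and Col2a1 (481 in mutants and 4151 in controls).

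Markers of several cell types moved with the collagens at E11.5. Of 13 fibroblast and meninges markers tested, 5 fell and 1 rose, with a median log2 ratio of -0.71, and 11 of 13 were lower, from a list in which Dpt was not in the table. Among 11 pericyte markers 5 fell and 1 rose (median -0.55), among 12 myeloid markers 3 fell (summed mean 1287 in mutants and 2537 in controls), and among 9 endothelial markers 1 fell (summed mean 725 in mutants and 1298 in controls), by the authors' deposited table. Among 9 cartilage and bone markers 3 fell and 1 rose (median -0.33). Smooth muscle markers had a median of 0.10, with none of 6 past the threshold. None of 9 neural progenitor and neuron markers passed either (median -0.08), nor did any of 2 erythroid and 2 Schwann and neural crest markers tested. The part of these shifts in the collagen values was not tested, but when every log2 ratio was set relative to the median fibroblast and meninges marker, a scaling chosen after seeing the data, Col6a2 stood at -0.12 (adjusted p 0.602), Col1a2 at 0.015 (adjusted p 0.953) and Col3a1 rose at 0.62. Under that scaling 12156 of all 19301 genes rose and 102 fell, so the rise of Col3a1 was shared by most genes. With the spread rescaled so that the median test statistic of all genes matches a standard normal, neither Col6a2 nor Col1a2 passed, and 5 of all genes did. Across all the settings tried the adjusted p of Col6a2 ranged between 0.000546 and 0.604 and that of Col1a2 between 0.0101 and 0.995.

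Other genes of the collagen pathway were counted by role. Of 13 fibril-associated collagens and fibril regulators, 9 fell and none rose (median log2 ratio -0.97). Col9a3, a chain of the type IX collagen that coats cartilage fibrils, averaged 138 in mutants and 539 in controls (log2 ratio -1.96, adjusted p 0.000237) in the authors' deposited table. Col14a1, whose product binds the surface of type I fibrils, had 44.3 in mutants and 204 in controls there (log2 ratio -2.20, adjusted p 0.00302), and Fmod, encoding the fibril-binding fibromodulin, had 349 in mutants and 831 in controls (log2 ratio -1.25, adjusted p 0.0108). Of this list, 5 genes also stand among the cartilage or fibroblast markers. Col9a2, Fmod and Dcn of these fell, while Lum (log2 ratio -0.22, adjusted p 0.666) and Col9a1 (log2 ratio 0.17, adjusted p 0.396) did not pass the threshold in the authors' deposited table.

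Of the enzymes that hydroxylate and fold procollagen, 16 of 17 did not pass the threshold. The exception, P4ha3, a catalytic subunit of prolyl hydroxylase, had 146 in mutants and 447 in controls by the authors' deposited table (log2 ratio -1.61, adjusted p 3.17e-07), and the median of the list was -0.0092. None of 7 procollagen secretion genes passed. Of 12 processing and crosslinking enzymes, Bmp1, which cleaves the C-terminal propeptide, fell (486 in mutants and 940 in controls by the authors' deposited table, log2 ratio -0.95, adjusted p 0.000409). Of 11 collagen receptors Cspg4, the NG2 proteoglycan of pericytes that binds type VI collagen, fell (309 in mutants and 611 in controls there, log2 ratio -0.98, adjusted p 0.00636). Cspg4 also stands among the pericyte markers counted above.

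On the side of breakdown, both Mmp14 and Mmp9 fell among 4 genes tested. Mmp14, a membrane-bound collagenase, averaged 1155 in mutants and 2140 in controls (log2 ratio -0.89, adjusted p 0.0171), and Mmp9, a gelatinase, had 32.5 in mutants and 104 in controls (log2 ratio -1.68, adjusted p 0.0338), in the authors' deposited table. Genes of both collagen synthesis and collagen breakdown were thus among those that fell. Of 4 other fibrillar chains Col27a1, a cartilage collagen, fell (log2 ratio -1.18, adjusted p 0.0325, authors' deposited table), and the only tested gene among other type VI chains did not pass.

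Among 11 transcription factors linked to collagen genes, all 11 had a negative log2 ratio and 2 fell. Sox9, Runx2 and Sp7 of this list also stand among the cartilage and bone markers, and Foxc1 among the fibroblast and meninges markers. Nfix averaged 11.1 in mutants and 141 in controls (log2 ratio -3.67, adjusted p 7.77e-07), and Runx2, the master factor of bone-forming cells, had 33.6 in mutants and 466 in controls (log2 ratio -3.79, adjusted p 0.000476), in the authors' deposited table. Of 14 genes of TGF-beta signalling the ligand genes Tgfb1 (8.91 in mutants and 34.8 in controls, log2 ratio -1.97, adjusted p 0.00436) and Tgfb2 (2473 in mutants and 3456 in controls, log2 ratio -0.48, adjusted p 0.0245) fell in the authors' deposited table. Ccn2, a matricellular gene that TGF-beta induces in fibroblasts, rose instead (1332 in mutants and 796 in controls there, log2 ratio 0.74, adjusted p 0.0410). The 14 genes had a median log2 ratio of -0.48.

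**Figure D2:**
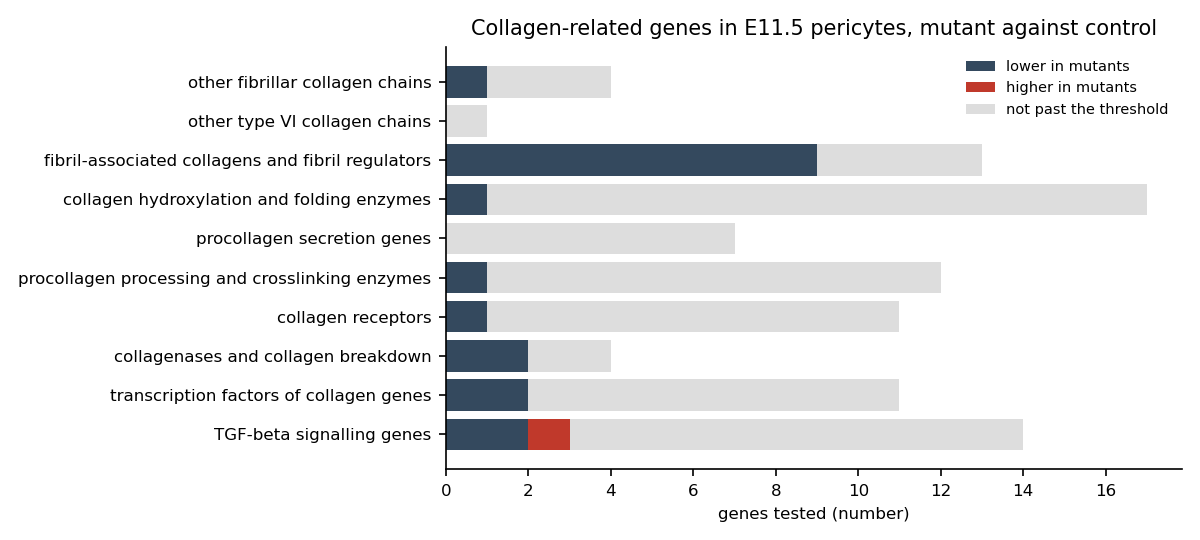
Number of tested genes (horizontal axis) in each of 10 lists of collagen-related genes that were lower in mutants, higher in mutants or not past an adjusted p of 0.05 in E11.5 pericytes. The list of fibril-associated collagens and fibril regulators holds 9 lower genes of 13, and the 17 hydroxylation and folding enzymes hold 1.

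At E13.5 Col1a1, Col1a2 and Col3a1 were among the 14 highest genes of control pericytes, and none of the 10 passed the threshold, where 0.388% of 20084 genes did. By the authors' deposited table they took 1.69% of all normalized counts in mutants and 1.63% in controls. Their median log2 ratio was 0.06 (0.0012 over all genes), with 7 positive and 3 negative, and 1 of the 10, Col3a1, had an unadjusted p under 0.05, against 4.06% of all genes. All 10 had an adjusted p of 1.00.

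The chains of type I collagen differed little between genotypes at this stage. Col1a1, 6th highest of all genes in controls, had a mean of 126389 in mutants and 118865 in controls by the authors' deposited table, a log2 ratio of 0.09 (95% interval -0.14 to 0.32). Col1a2 had 81240 in mutants and 81854 in controls there, and its interval allowed a ratio between 0.875 and 1.13. Col3a1 averaged 66054 in mutants and 58968 in controls (log2 ratio 0.16, unadjusted p 0.0378). These intervals are narrow, and the median SE of the 10 log2 ratios was 0.0856, against 0.206 in E11.5 pericytes.

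Type V and type VI chains were as close. In the authors' deposited table Col5a1 had 21790 in mutants and 20609 in controls and Col5a2 had 18453 in mutants and 17178 in controls, with log2 ratios of 0.08 and 0.10. Col6a1 had 11023 in mutants and 10902 in controls, Col6a2 14540 in mutants and 14061 in controls and Col6a3 25429 in mutants and 22748 in controls, with log2 ratios of 0.02, 0.05 and 0.16. For Col6a2, which had fallen at E11.5, the 95% interval at E13.5 was -0.10 to 0.19. The cartilage chains were the least certain, Col2a1 with 42487 in mutants and 50376 in controls (log2 ratio -0.25, SE 0.39) and Col11a1 with 16134 in mutants and 17554 in controls (log2 ratio -0.12, SE 0.40) in the authors' deposited table.

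Around the chains, few genes changed at E13.5. Mmp9 (680 in mutants and 1123 in controls, log2 ratio -0.73, adjusted p 5.64e-05) fell at this stage as well, by the authors' deposited table. Scx, the tendon transcription factor that activates type I collagen genes in tendon, fell too (243 in mutants and 449 in controls, log2 ratio -0.89, adjusted p 2.70e-05, authors' deposited table), while at E11.5 it had not passed (log2 ratio -1.12, adjusted p 0.261). Of the TGF-beta genes the co-receptor gene Tgfbr3 rose (log2 ratio 0.48, adjusted p 9.99e-05) and the feedback inhibitors Pmepa1 (log2 ratio -0.34, adjusted p 0.0117) and Skil (log2 ratio -0.58, adjusted p 0.0360) fell in the authors' deposited table. None of 14 fibril-associated genes, 17 hydroxylation and folding enzymes, 7 secretion genes, 13 processing enzymes and 12 receptors passed. None of 13 fibroblast and meninges markers passed either, and they summed to 78169 in mutants and 77770 in controls. Xist, the long RNA of the inactive X chromosome, had a mean of 5.73 in mutants and 36145 in controls in this table (authors' deposited table, adjusted p 9.1e-12), so embryo sex, which the labels do not give, and genotype cannot be told apart in these pericytes. No Xist value is given here for the other fractions, so embryo sex was not checked there.

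**Figure D3:**
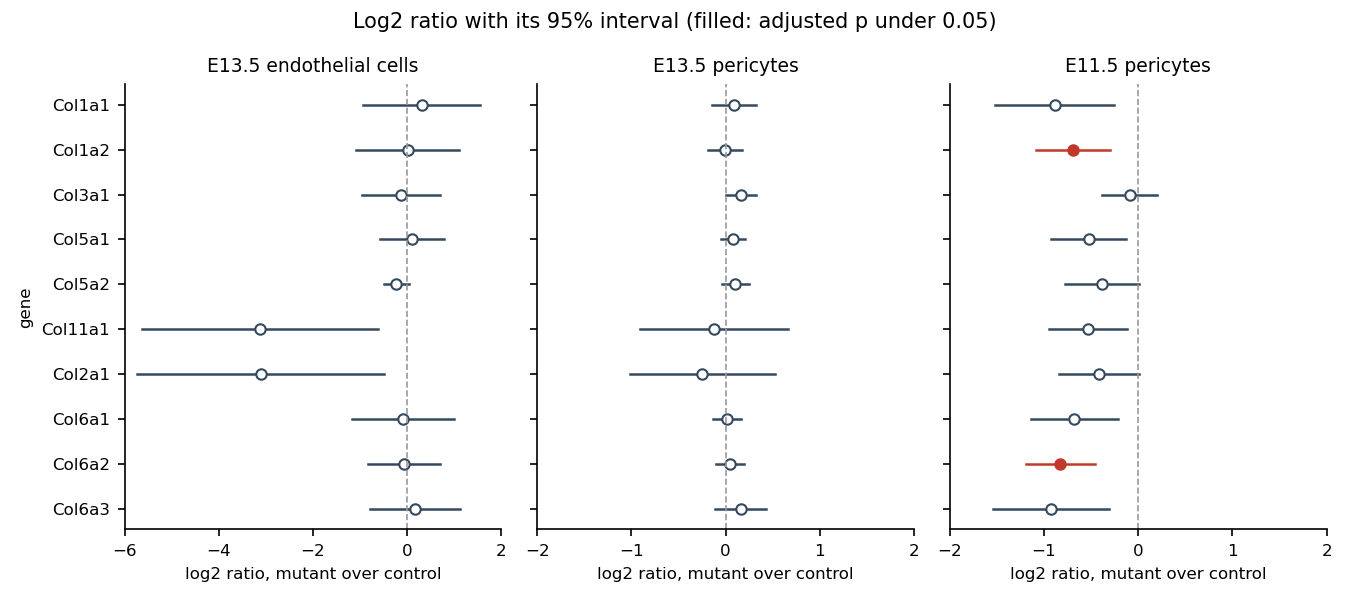
Log2 ratio of mutant over control (horizontal axis, wider for endothelial cells) with its 95% interval for the 10 collagen genes in each comparison, filled where the adjusted p was under 0.05. In E11.5 pericytes all 10 points lie below zero with Col1a2 and Col6a2 filled, and in E13.5 pericytes the points lie between -0.25 and 0.16.

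The log2 ratios of the 2 pericyte stages were compared directly, since a fall past the threshold at one stage only does not show that the stages differ. All 10 differences, E13.5 minus E11.5, were positive, with a median of 0.64 against 0.0043 over the 18267 genes compared, and 7 of 10 had an unadjusted p under 0.05, against 13.3% of all genes. For Col6a2 the difference was 0.88 (SE 0.20), between 0.05 at E13.5 and -0.83 at E11.5, with an adjusted p of 0.00513. It was the only one of the 10 past the threshold, where 1.35% of all genes were in that direction. Col6a3 (1.08, SE 0.34, adjusted p 0.0772) and Col1a2 (0.68, SE 0.22, adjusted p 0.0860) came next and passed at 0.1, and also when each table was scaled to its median gene, while Col1a1 (0.97, adjusted p 0.139), Col5a1 (0.61, adjusted p 0.135) and Col6a1 (0.70, adjusted p 0.147) did not. Of the 18267 genes, 412 passed in that direction at 0.1 and 415 when scaled to the median gene, against 246 as deposited. The intervals of Col3a1 (-0.08 to 0.58), Col11a1 (-0.47 to 1.30) and Col2a1 (-0.71 to 1.05) included zero. The fibroblast and meninges markers moved the same way, with a median log2 ratio of 0.04 at E13.5 and -0.71 at E11.5, and scaled to them the difference for Col6a2 was 0.12 (adjusted p 0.615), within a range of 0.00156 to 0.615 over the settings tried, and that for Col3a1 was -0.50 and past the threshold. Under that scaling 11252 of the 18267 genes passed in the direction of Col3a1 and 74 in the other. The part of the fibroblast and meninges markers in the stage difference was not tested. The E13.5 pericytes, where embryo sex and genotype cannot be told apart by Xist, enter every stage difference, so the same limit holds for each.

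In endothelial cells at E13.5 the collagens were minor transcripts, with 0.0251% of all normalized counts in mutants and 0.0566% in controls by the authors' deposited table. All counts summed to 2.299e+07 in mutants and 2.108e+07 in controls, of which 8 erythroid markers held 1594702 and 58748. None of the 10 passed the threshold, where 7.3% of 18132 genes did. The median log2 ratio was -0.08 (-0.013 over all genes), with 6 negative and 4 positive, and 2 of 10 had an unadjusted p under 0.05, as did 20.0% of all genes. Scaled to the summed means, the median of all genes shifted by 0.13 and the collagens still gave no call.

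The 2 low values were the cartilage chains. Col11a1 had a mean of 325 in mutant and 2849 in control endothelial cells in the authors' deposited table, 8.76-fold lower (log2 ratio -3.13, SE 1.28, adjusted p 0.121). Col2a1 had 481 in mutants and 4151 in controls there, 8.62-fold lower (log2 ratio -3.11, SE 1.34, adjusted p 0.147). Both SEs exceed 1 on the log2 scale, so that the 95% interval of the ratio ran between 0.0201 and 0.650 for Col11a1 and between 0.0189 and 0.712 for Col2a1.

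Of other genes in these cells, the cartilage markers Sox9, Acan, Matn1, Matn3, Col9a1, Col9a2 and Cnmd were all lower in mutants. The bone markers were mixed. Of 12 cartilage and bone markers, all of them listed, none passed the threshold, 8 had a negative and 4 a positive log2 ratio, the median log2 ratio was -1.93 and the summed mean was 3541 in mutants and 14407 in controls, by the authors' deposited table. Acan, the cartilage proteoglycan, had 67.2 in mutants and 994 in controls, Cnmd, a cartilage glycoprotein, 408 in mutants and 3576 in controls, and Sox9, the cartilage transcription factor, 1200 in mutants and 4064 in controls, in the same deposited table of the authors. The bone marker Ibsp lay the other way, with 718 in mutants and 37.5 in controls (log2 ratio 4.26, SE 1.69, adjusted p 0.106, authors' deposited table). Alpl (log2 ratio 1.01), Runx2 (0.16) and Dlx5 (0.07), all known from bone-forming cells, were the other markers with a positive value. Runx2 and Dlx5 were close to level (adjusted p 0.901 and 0.952, authors' deposited table). Sp7, also known from bone-forming cells, lay below zero, with 65.8 in mutants and 102 in controls (adjusted p 0.705, authors' deposited table). The part of cartilage cells in the values of Col2a1 and Col11a1 was not tested.

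**Figure D4:**
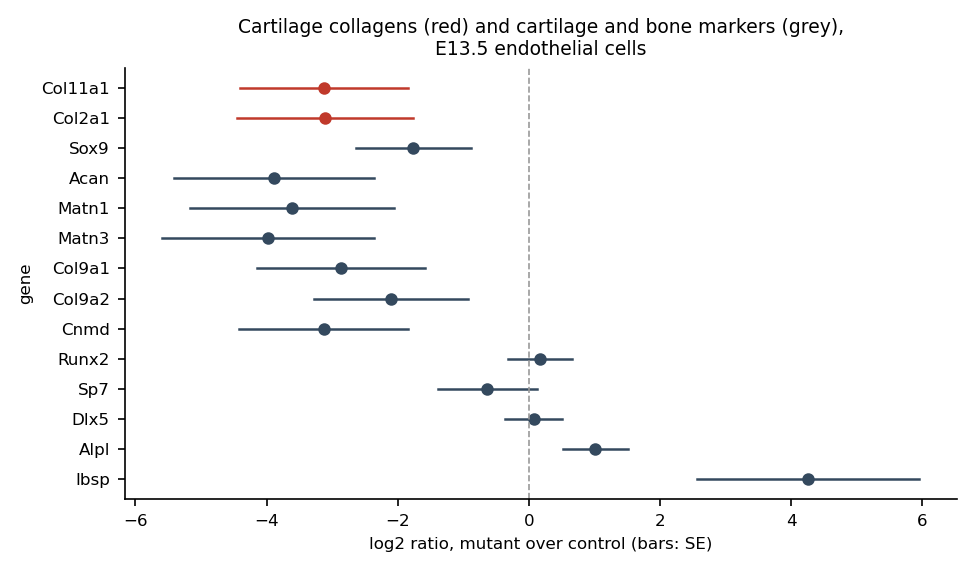
Log2 ratio of mutant over control (horizontal axis, bars for 1 SE) in E13.5 endothelial cells for Col11a1 and Col2a1 in red and for 12 cartilage and bone markers in grey. Both collagens lie near -3.1. The median of the 12 cartilage and bone markers together is -1.93, with 8 of 12 negative and Ibsp, Alpl, Runx2 and Dlx5 positive.

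The other collagens of the endothelial fraction were nearly level, with wide errors. Col1a1 averaged 1358 in mutants and 1101 in controls (log2 ratio 0.30, SE 0.63) and Col1a2 1440 in mutants and 1433 in controls (log2 ratio 0.0074) in the authors' deposited table. Col3a1 had 620 in mutants and 680 in controls, Col5a1 119 in mutants and 111 in controls, and Col5a2 1023 in mutants and 1202 in controls (log2 ratio -0.23, SE 0.14, adjusted p 0.342) there. Of the type V chains, Col5a2 had the narrower interval (-0.50 to 0.04). The type VI chains Col6a1 (169 in mutants and 180 in controls), Col6a2 (132 in mutants and 138 in controls) and Col6a3 (103 in mutants and 91.5 in controls) had log2 ratios between -0.09 and 0.17 by the authors' deposited table. Their intervals were wide, such as -0.83 to 0.70 for Col6a2, and the log2 ratio of Col6a1 in E11.5 pericytes, -0.68, lies within its endothelial interval of -1.17 to 0.99.

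Among related genes of the endothelial fraction, Bgn, encoding the fibril-binding biglycan, fell (2475 in mutants and 4071 in controls, log2 ratio -0.72, adjusted p 0.00831), as did Col14a1 (log2 ratio -1.15, adjusted p 0.0447), in the authors' deposited table. Mia3, which loads procollagen into transport carriers (log2 ratio -0.37, adjusted p 0.0413), Creb3l2, a factor of secretory genes (log2 ratio -0.53, adjusted p 0.0420), Itga1, a collagen-binding integrin (log2 ratio -0.35, adjusted p 0.0111), and Sp1 (log2 ratio -0.39, adjusted p 0.0161) fell, while Nfix rose (log2 ratio 0.98, adjusted p 0.00202), by the authors' deposited table. The 8 erythroid markers all rose, with a summed mean of 1594702 in mutants and 58748 in controls (authors' deposited table). All 12 myeloid markers had a positive log2 ratio and Aif1 and Tyrobp rose (summed mean of the list 21405 in mutants and 12491 in controls), and of 12 endothelial markers Kdr fell (log2 ratio -0.44, adjusted p 0.0209), by the authors' deposited table. The part of these shifts in the levels of other genes was not tested.

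The differences between cell types, endothelial cells minus pericytes at E13.5, gave none of 10 collagens past the threshold, where 3.94% of 16920 genes passed. The difference was -3.01 for Col11a1 (adjusted p 0.228), -2.86 for Col2a1 (adjusted p 0.291) and -0.34 for Col5a2 (adjusted p 0.250), and these were the 3 with an unadjusted p under 0.05. For the other 7 the differences lay between -0.30 and 0.21. The limit on embryo sex in E13.5 pericytes holds for these differences too.

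The make-up of the collagen transcripts was then compared within each group, per kilobase of the longest annotated transcript, as a description without a test. The union of annotated exons and the median over all annotated transcripts, short ones included, served as alternatives. For Col1a1 and Col3a1 that median lies far below the longest transcript, of 5930 and 5564 bases, which raises their level per kilobase. In endothelial cells Col2a1 made up 9.49% of the summed level of the 10 genes in mutants and 39.9% in controls, and Col11a1 4.27% in mutants and 18.2% in controls, by the authors' deposited means. In E13.5 pericytes Col1a1 led, with 29.5% in mutants and 28.3% in controls, and it led under each of the 3 transcript lengths tried. Col1a2 took 21.0% in mutants and 21.6% in controls there with the longest transcript, but 7.68% in mutants and 7.98% in controls with the median transcript length, below Col3a1 (17.2% in mutants and 15.9% in controls).

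In E11.5 pericytes Col3a1 took 40.5% in mutants and 30.8% in controls, beside Col1a1 with 20.6% in mutants and 27.2% in controls. In mutants Col3a1 was the largest share under all 3 lengths, whereas in controls Col1a1 was larger with the union of exons (37.4%, against 26.5% for Col3a1) and with the median length (49.5%, against 30.5% for Col3a1). Per kilobase, Col3a1 stood at 1.96 times Col1a1 in mutants and 1.13 times in controls with the longest transcript, 1.23 times in mutants and 0.709 times in controls with the union of exons, and 1.07 times in mutants and 0.616 times in controls with the median length. The ratio of the 2 chains was higher in mutants. The length cancels between groups, so this holds under every length and the 3 lengths do not test it. Whether the ratio lay above 1 in controls depended on the length.

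For the chains of 1 collagen type, which chain was higher depended on the length used in some fractions only. It turned for Col6a3 and Col6a2 and for Col5a1 and Col5a2 in E13.5 pericytes, and for Col1a1 and Col1a2 in endothelial cells. For these pairs in E11.5 pericytes the same chain was higher under all 3 lengths. A change in the ratio of a pair between groups does not depend on the length, since each length is the same in every group. Per kilobase of the longest transcript, Col6a3 over Col6a2 was 0.379 in mutant and 0.323 in control endothelial cells, 0.850 in mutant and 0.786 in control E13.5 pericytes, and 0.221 in mutant and 0.236 in control E11.5 pericytes, by the authors' deposited means. With the median length the E13.5 pericyte ratio was 1.89 in mutants and 1.75 in controls. Col5a1 over Col5a2 was 0.0919 in mutant and 0.0731 in control endothelial cells, 0.931 in mutant and 0.946 in control E13.5 pericytes, and 0.418 in mutant and 0.462 in control E11.5 pericytes with the longest transcript, and 1.33 in mutant and 1.36 in control E13.5 pericytes with the union of exons. Both ratios thus varied more between fractions than between genotypes. Col1a1 over Col1a2 was 0.850 in mutant and 0.693 in control endothelial cells, 1.40 in mutant and 1.31 in control E13.5 pericytes, and 1.33 in mutant and 1.52 in control E11.5 pericytes with the longest transcript, but 4.48 in mutant and 3.65 in control endothelial cells and 7.40 in mutant and 6.90 in control E13.5 pericytes with the median length. The type VI chains together made up 11.3% in mutant and 11.0% in control E13.5 pericytes, and 5.46% in mutant and 6.64% in control E11.5 pericytes, but 2.58% in mutant and 2.51% in control E13.5 pericytes and 1.08% in mutant and 1.27% in control E11.5 pericytes with the median length.

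**Figure D5:**
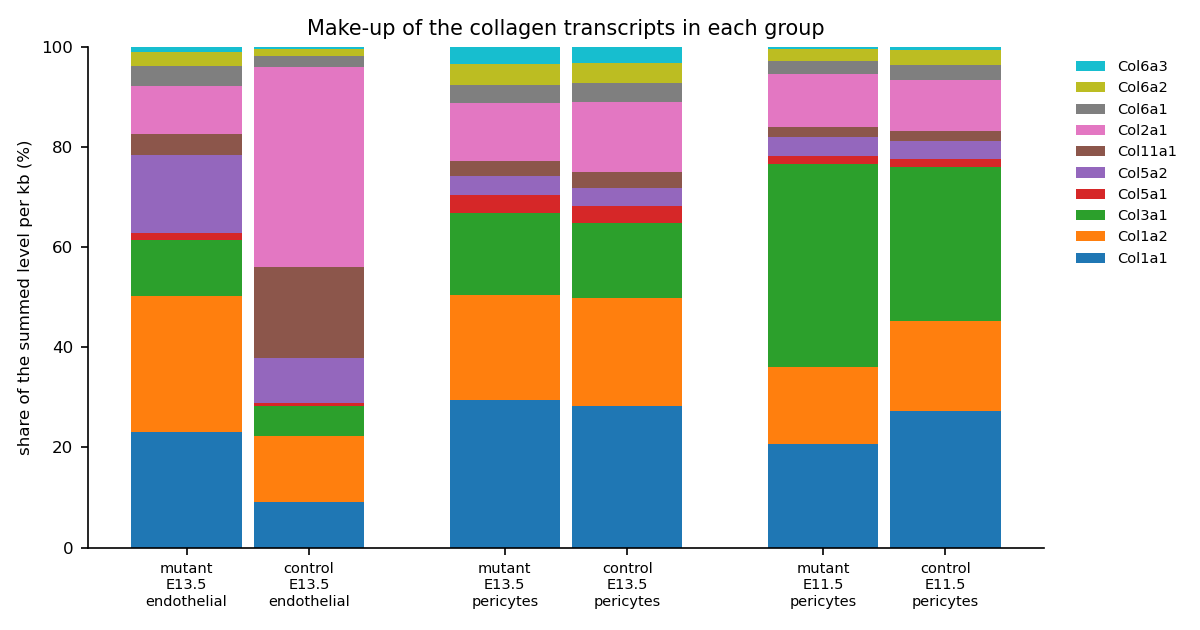
Share of each gene in the summed level per kilobase (longest transcript) of the 10 collagen genes (vertical axis, in percent), with mutants left of controls in each fraction. Col2a1 and Col11a1 take 9.49% and 4.27% in mutant endothelial cells but 39.9% and 18.2% in control endothelial cells. With the longest transcript, as drawn, Col3a1 is the largest share in both groups of E11.5 pericytes, but in controls Col1a1 is larger with either other length.

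The genes whose 3 log2 ratios lay nearest to the medians of the collagens (-0.08 in endothelial cells, 0.06 in E13.5 pericytes and -0.61 in E11.5 pericytes), among 8809 genes, were Zfp703, Mcam, Zcchc24, Tomm70a and Ash2l. Mcam, the cell adhesion molecule CD146 of vascular cells, had log2 ratios of -0.10, 0.07 and -0.64 in the same order of fractions. This likeness is over 3 comparisons only and is a description.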

How the data were processed

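A KAPA kit was used on messenger RNA of the sorted cells, per the labels' protocols. The submitters' processing notes name Bowtie2, Partek and DESeq2 with no versions, and mm10. The annotation, the counting step and the model's formula are not given in the sources used here. Per the file headers, the deposited columns for each gene are a p-value of the authors, its step-up FDR, a ratio (mutant over control), the signed fold change, and 1 least-squares mean for each group. The authors' means were read as a signal, the normalized count, on a scale the sources do not give, so depth per library is unknown. The deposited FDR equals a Benjamini-Hochberg adjustment over the genes that have one, and the authors' values are taken to come from DESeq2. Columns of other samples numbered 0.

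The members and gene lists were chosen with earlier results of these data known. Since values per library were not analysed here, the authors' deposited p-values and FDR are the test. The SE is the log2 ratio over the normal deviate of its p, as in a Wald test, and intervals are 95%. Differences between stages or cell types were divided by their SE (the root of the sum of both squared SEs), with a two-sided normal p and Benjamini-Hochberg adjustment over all genes. These steps were run on simulated log2 ratios with normal noise of the same SEs, which checks the computation only. The real test statistics were spread, relative to a standard normal, by 1.51 in E11.5 pericytes, 0.864 in E13.5 pericytes and 1.48 in endothelial cells. The simulation did not cover such a spread. Lengths and positions come from GENCODE M21. Named are the 10 collagens, Tgfbr1, up to 3 past the threshold with the smallest p from each of 10 collagen-related lists in each comparison, and the 5 genes (no predicted genes) above the median control level in both pericyte tables with the 3 log2 ratios nearest to the collagens' medians by Euclidean distance. Marker genes and Xist were named after their values were seen. Alternatives were scaling to the summed means or the median gene, the filter on low genes, other thresholds, a rescaled spread and transcript length. The tools were pandas 2.3.3, numpy 2.4.6, scipy 1.17.1 and matplotlib 3.10.9 in Python 3.11.15.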

Additional observations from a re-analysis of the deposited data

Results flagged for a closer look

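The log2 ratio of Col6a2 differed between stages by 0.88 (SE 0.20, E13.5 minus E11.5, adjusted p 0.00513 from the normal test of the difference described above), with 0.05 in E13.5 pericytes and -0.83 in E11.5 pericytes by the authors' deposited tables. It is listed here because the test of the difference itself passed the threshold. It was the only one of the 10 collagens to do so. By Xist, embryo sex and genotype cannot be told apart in the E13.5 pericytes, which enter this difference.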

How the results depend on the processing

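No paired analysis was possible because only group means were analysed, with no values per library, and leaving out single replicates was not run for the same reason. In E11.5 pericytes the number of collagens past the threshold was 2 as deposited, 4 when scaled to the median gene or at an adjusted p under 0.1, 0 at a log2 ratio of at least 1, and 0 with the spread rescaled, where 5 of all genes passed instead of 646. Of all 19301 genes, 522 were lower as deposited, 786 when scaled to the median gene and 867 at an adjusted p under 0.1. Scaled to the fibroblast and meninges markers, an alternative chosen after seeing the data, the number of collagens was 1, Col3a1, in the opposite direction, where 12156 of all genes were higher and 102 lower. For the stage difference it was 1 as deposited, 3 when scaled to the summed means or the median gene or at an adjusted p under 0.1 (Col1a2, Col6a2 and Col6a3), and 0 at a log2 ratio of at least 1 or with the spread rescaled. Of all 18267 genes, 246 passed in that direction as deposited. With the summed means it was 433, with the median gene 415 and at an adjusted p under 0.1 it was 412. Scaled to the fibroblast and meninges markers the number of collagens was 1, Col3a1, again in the opposite direction, where 74 of all genes were higher and 11252 lower. For the difference between cell types it was 0, and 1 when scaled to the summed means, where Col5a2 stood at -0.48. E13.5 pericytes and endothelial cells gave 0 under every alternative tried. Over all genes, scaling to the summed means moved the calls in endothelial cells to 634 higher and 1565 lower, against 926 higher and 397 lower as deposited, in E13.5 pericytes to 60 higher and 26 lower, against 45 higher and 33 lower, and in the difference between cell types to 316 higher and 908 lower, against 499 higher and 167 lower. The endothelial summed means include the erythroid markers, at 1594702 in mutants and 58748 in controls.

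Signs that turned under the summed means belonged to small values, with Col1a2 at 0.0080 in E13.5 pericytes, Col1a2 at -0.12 and Col5a1 at -0.028 in endothelial cells, and Col1a2 at -0.13, Col5a1 at -0.13 and Col6a3 at -0.14 for the difference between cell types. Scaled to the fibroblast and meninges markers, the log2 ratios in E11.5 pericytes were 0.015 for Col1a2, 0.62 for Col3a1, 0.18 for Col5a1, 0.33 for Col5a2, 0.17 for Col11a1, 0.29 for Col2a1 and 0.030 for Col6a1, and Col6a1 stood at -0.028 in E13.5 pericytes. The stage differences were then -0.070 for Col1a2, -0.50 for Col3a1, -0.15 for Col5a1, -0.27 for Col5a2, -0.34 for Col11a1, -0.58 for Col2a1 and -0.058 for Col6a1. With the median in place of the longest transcript length, the share of type VI chains was 1.95% in mutant and 1.00% in control endothelial cells, 2.58% in mutant and 2.51% in control E13.5 pericytes, and 1.08% in mutant and 1.27% in control E11.5 pericytes, against 7.88% in mutant and 3.98% in control endothelial cells with the longest. The means are the same under every length, so the change in this share comes from the annotated lengths alone. In mutant E11.5 pericytes Col1a1 stood at 2628 per kilobase with the longest and 36413 with the median length. The type VI chains together stood at 697 and 1018 there. What underlies the shift of the fibroblast and meninges markers was not tested. Depth per library is unknown, and the median SE of the 10 log2 ratios was 0.519 in endothelial cells, 0.0856 in E13.5 pericytes and 0.206 in E11.5 pericytes.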
